A study of Mus musculus with 6 samples.

Results

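The BCL2 family decides whether a mitochondrion releases the proteins that set off apoptosis. Here 10 of its genes were examined in heart ventricles of newborn mice with a heart-specific knockout of Med12. They were chosen by name, as the rows of the deposited count table with the symbols Bcl2l11, Bbc3, Pmaip1, Bax, Bak1, Bcl2, Bcl2l1, Mcl1, Bnip3 and Bnip3l. The choice was made with earlier results of these data known, so shares among the members are descriptions. All 10 were among the 24062 symbols of the table, and all 10 passed the filter on low counts that left 13629 genes to be tested. RNA was sequenced from ventricles of male C57/Bl6N mice at postnatal day 1 (P1). The Med12cKO group (CrePOS, 3 libraries) carried Cre recombinase for a heart-specific knockout of Med12, a subunit of the Mediator kinase module that relays signals from transcription factors to RNA polymerase II. The control group (CTL, CreNEG, 3 libraries) had no Cre. The sources used here do not give the Cre driver, nor whether the controls carry the conditional Med12 allele. Cre was present in the Med12cKO mice alone, so in every difference below its own effect and that of losing Med12 cannot be told apart.

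In this family, Bax and Bak1 encode the effectors that form pores in the outer mitochondrial membrane. Bcl2, Bcl2l1 (BCL-XL) and Mcl1 encode survival proteins that hold the effectors in check, and Bcl2l11 (BIM), Bbc3 (PUMA) and Pmaip1 (NOXA) encode BH3-only proteins, which bind the survival proteins and thereby free the effectors. Bnip3 and Bnip3l (NIX) encode outer-membrane receptors that mark mitochondria for removal by autophagy, a process of weight in the heart, where mitochondria are dense. BIM is induced by FOXO transcription factors when growth signals are withdrawn, PUMA, NOXA and BAX by p53, and BNIP3 by the hypoxia-inducible factor HIF.

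Promoter sequence was taken from RefSeq for Bcl2l11 (the first of its windows), the member whose groups were apart, and for Bnip3, whose hypoxia element is a standard example. RefSeq promoter windows on GRCm38.p6 were found for 8 of the 10 members, all but Bnip3l and Pmaip1. The stretches below end at the annotated start of the gene and are written 5′ to 3′ on the strand of the gene, with motif matches in capitals. A second RefSeq window of Bcl2l11, at chr2:128127325-128127624, held no match to any motif searched and is not shown. In the Bcl2l11 stretch the capitals mark GTAAACA, the FOXO core, and GCGGGGGCG, a form of the EGR1 site. In Bnip3 they mark ACGTG, the core of the hypoxia response element, read on both strands as an overlapping palindrome.
Bcl2l11, chr2:128125788-128126037, plus strand: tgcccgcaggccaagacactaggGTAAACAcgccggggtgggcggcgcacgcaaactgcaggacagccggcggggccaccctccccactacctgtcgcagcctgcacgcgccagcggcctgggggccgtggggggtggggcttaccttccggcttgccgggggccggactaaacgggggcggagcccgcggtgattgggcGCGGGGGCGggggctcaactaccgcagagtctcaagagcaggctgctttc
Bnip3, chr7:138909520-138909756, minus strand: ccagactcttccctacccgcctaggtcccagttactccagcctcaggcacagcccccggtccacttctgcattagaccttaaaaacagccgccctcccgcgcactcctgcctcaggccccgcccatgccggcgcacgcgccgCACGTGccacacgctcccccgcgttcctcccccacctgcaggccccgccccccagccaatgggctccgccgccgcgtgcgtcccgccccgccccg
In the 250 bases before the start, searched on both strands, GTAAACA was present in 3.17% of 32851 RefSeq windows, GCGGGGGCG in 2.57% and ACGTG in 16.6%. The other form of the EGR1 site, GCGTGGGCG, was present in 0.536% of windows and in none of the members. Among the other members, GTAAACA was found in a window of Bbc3, GCGGGGGCG in another window of Bbc3, and ACGTG in Bax and Bbc3. A match describes the letters of the window and does not show that a factor binds there. Whether a match bears on the level of any gene below was not tested.

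Library totals ran from 8453346 to 10150557 counts in Med12cKO and from 8930340 to 10911698 in controls. Values below are CPM, read counts divided by the library size and rescaled by the TMM method, with n = 3 libraries per group, and tests are edgeR's quasi-likelihood test with Benjamini-Hochberg adjustment over all 13629 genes. Med12 itself measured 61.6, 85.0 and 41.3 CPM in Med12cKO replicates 1 to 3, against 103, 176 and 113 CPM in controls, so every Med12cKO library was below every control (log2 fold change −1.06, SE 0.30; adjusted p = 0.765 in edgeR, and 0.024 in DESeq2). The Med12cKO mean was 47.9% of the control mean, and the source of the remaining reads was not tested. Transcripts of thymus and T cells, tissue that lies beside the heart, stood high in 2 libraries: the 16 markers summed to 1415, 85.1 and 117 CPM in Med12cKO replicates 1 to 3, against 91.3, 107 and 1421 CPM in controls. The 10 cardiomyocyte markers were abundant in every library, summing to 36276 to 45257 CPM in Med12cKO and 45186 to 55738 CPM in controls, with 9 of 10 at a negative log2 fold change and 2 of 10 at an unadjusted p under 0.05. Of the 10 atrial markers 5 had an unadjusted p under 0.05, all lower in Med12cKO, and DESeq2 called 3. Over all genes tested, 3.78% had an unadjusted p under 0.05 in edgeR (1.61% lower and 2.16% higher), and DESeq2 called 0.489%. The atrial list summed to 5769 to 7514 CPM in Med12cKO and 6227 to 8563 CPM in controls. In it, 7 genes had a negative log2 fold change and 3 a positive one, namely Nppa (0.18), Myl4 (0.16) and Bmp10 (0.0042). The atrial myosin gene Myl7 had the most negative value of the list, −1.10. It measured 496, 609 and 432 CPM in Med12cKO and 1240, 1149 and 901 CPM in controls. Of 14 skeletal muscle markers 9 were tested, 2 had an unadjusted p under 0.05, both higher in Med12cKO, and DESeq2 called 2. That list summed to 1831 to 2981 CPM in Med12cKO and 2101 to 2742 CPM in controls. Most of it was Ckm, at 1776 to 2938 and 2060 to 2704 CPM in the same groups. The 2 called were Mybpc1 (21.2, 4.64 and 3.77 CPM in Med12cKO, 1.61, 2.57 and 1.53 in controls) and Mybpc2 (18.5, 16.7 and 11.7, against 7.25, 8.19 and 5.36). Myh8, a skeletal myosin gene, measured 68.9 CPM in Med12cKO replicate 1 and at most 18.0 CPM in each of the other 5 libraries (unadjusted p = 0.130, edgeR). Tnnt3 and Atp2a1 were also highest in Med12cKO replicate 1, at 29.3 and 27.7 CPM, while Ckm and Pvalb were highest in replicate 3. The atrial and skeletal muscle genes named here were picked after their values were seen. Fits with a term for thymus transcripts, or without those 2 libraries, are given below, and the part of the cardiomyocyte, atrial and skeletal muscle differences in the results was not tested. In whole ventricle RNA, fewer cells of a type and less RNA per cell cannot be told apart. At 3 libraries per group an exact permutation test cannot go below p = 0.10.

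None of the 10 members passed the test, where 3 of all genes tested (0.022%) did. DESeq2 and limma-voom also called 0 of the 10, where DESeq2 called 0.489% of 12467 genes and limma-voom 0.022%. DESeq2 left Pmaip1 without an adjusted p. At an unadjusted p under 0.05 there were 2 members, Bcl2l11 with a lower and Bcl2 with a higher mean in Med12cKO, where 3.78% of all genes reached that level. The groups did not overlap in 1 member, Bcl2l11, where they did not overlap in 8.23% of all genes. Of the 10 members, 5 had a negative and 5 a positive log2 fold change, and their median of 0.014 lay beside 0.0081 for all genes tested.

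**Figure D1:**
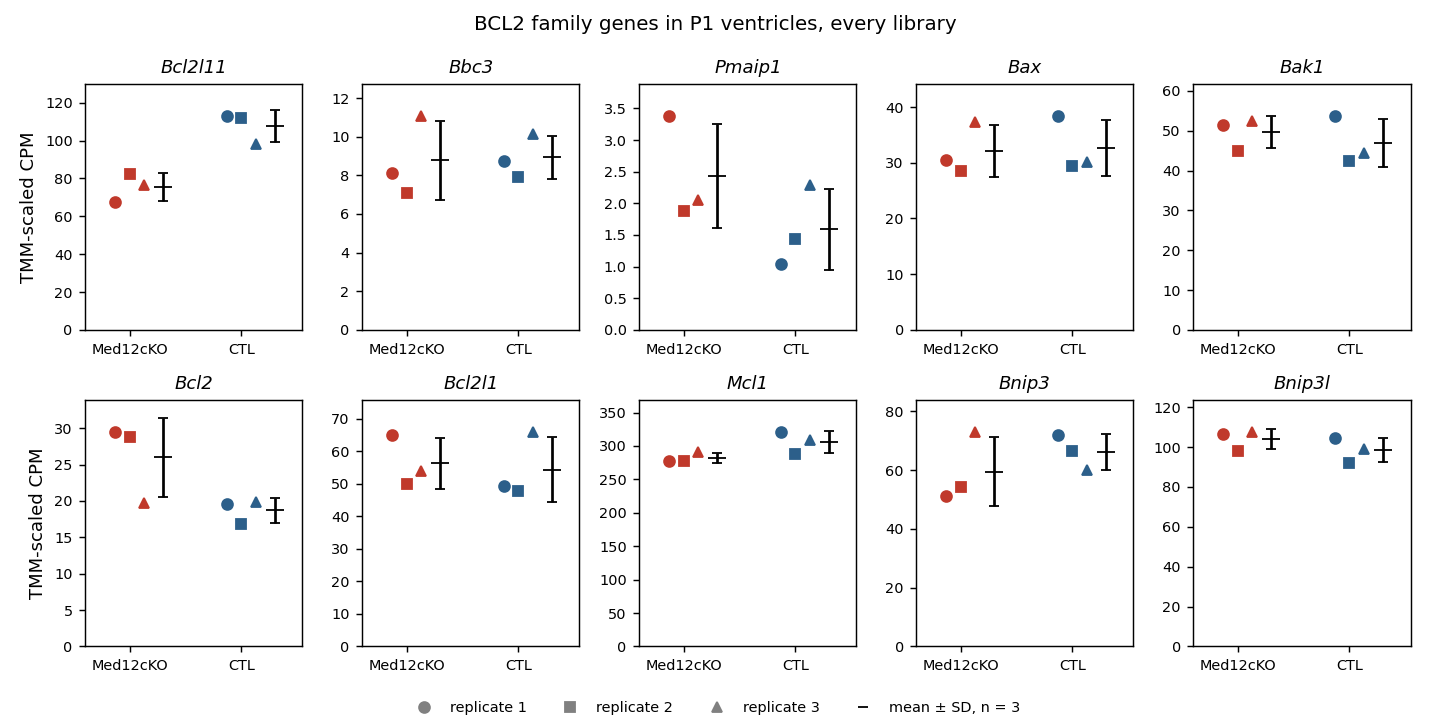
TMM-scaled CPM (y axis, from 0) of the 10 genes in each Med12cKO (red) and CTL (blue) library, with marker shape for the replicate number and mean ± SD (n = 3) in black. Bcl2l11 is the gene whose 3 Med12cKO libraries (67.4 to 82.6 CPM) all lie below the 3 controls (98.0 to 113 CPM), and in the other 9 the groups overlap.

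Among the BH3-only genes, Bcl2l11 stood lower in Med12cKO, while Bbc3 and Pmaip1 overlapped between the groups. Bcl2l11 encodes BIM, which can engage all the main survival proteins (chromosome 2, 128126038 to 128162547, plus strand, GRCm38, protein coding). It measured 67.4, 82.6 and 76.5 CPM in Med12cKO replicates 1 to 3, against 113, 112 and 98.0 CPM in control replicates 1 to 3. The highest Med12cKO library was below the lowest control, and the group means were 75.5 ± 7.63 CPM in Med12cKO and 108 ± 8.42 CPM in controls (SD, n = 3 each), a Med12cKO level of 70.1%. The log2 fold change was −0.51 (SE 0.12, 95% interval −0.79 to −0.24). Its unadjusted p of 0.0022, in edgeR, was the 67th smallest of 13629 and did not pass over all genes (adjusted p = 0.441). DESeq2 gave an adjusted p of 0.0523 and limma-voom one of 0.473. An exact permutation test of log2 CPM, two-sided, gave p = 0.10, the smallest possible. The raw counts were 598, 837 and 711 in Med12cKO and 983, 1176 and 1025 in controls. No exon base of Bcl2l11 is shared with another gene model in the GENCODE M21 annotation, and its transcript forms were not separated by a count per gene.

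The difference in Bcl2l11 was as large without the libraries with thymus transcripts. Without Med12cKO replicate 1 and control replicate 3 the log2 fold change was −0.51 (SE 0.20, unadjusted p = 0.0233, edgeR), and with a term for thymus transcripts it was −0.51 (SE 0.11, unadjusted p = 0.0012). Leaving out each library in turn gave −0.58 to −0.45, with an unadjusted p of at most 0.0125 in edgeR. Within the 4 libraries that carry the letter I in their description it was −0.53 (SE 0.14). None of these fits gave Bcl2l11 an adjusted p under 0.05.

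The p53-induced BH3-only genes were expressed at low levels. Bbc3 (chromosome 7, 16308393 to 16318205, plus strand) encodes PUMA and measured 8.12, 7.10 and 11.1 CPM in Med12cKO and 8.75, 7.91 and 10.1 CPM in controls. The Med12cKO values spanned those of the controls, and the log2 fold change was −0.027 (SE 0.23, 95% interval −0.54 to 0.48). Pmaip1 (chromosome 18, 66458533 to 66465565, plus strand) encodes NOXA, which acts mainly on MCL1, and measured 3.38, 1.87 and 2.04 CPM in Med12cKO and 1.04, 1.43 and 2.30 CPM in controls. These values rest on 30, 19 and 19 counts in Med12cKO and 9, 15 and 24 in controls. Its log2 fold change was 0.60 with a wide error (SE 0.40, 95% interval −0.30 to 1.49), and a difference was not detected. The parts of low counts and of spread among libraries in this error were not tested. The highest value in each group was in the library with thymus transcripts, and without those libraries the log2 fold change was 0.65 (SE 0.50). Single libraries moved it further, to 0.28 without Med12cKO replicate 1, 0.38 without control replicate 1 and 0.96 without control replicate 3.

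The pore-forming effectors had similar levels in both groups. Bax (chromosome 7, 45461697 to 45466898, minus strand) measured 30.4, 28.5 and 37.3 CPM in Med12cKO and 38.4, 29.4 and 30.1 CPM in controls. In each group 1 library stood above the other two, and the log2 fold change was −0.024 (SE 0.16, 95% interval −0.38 to 0.33). Bak1 (chromosome 17, 27019810 to 27029009, minus strand) measured 51.4, 45.0 and 52.5 CPM in Med12cKO and 53.7, 42.3 and 44.5 CPM in controls. The groups overlapped widely, and its log2 fold change was 0.085 (SE 0.13, 95% interval −0.22 to 0.39). Of the exon bases of Bak1, 25.5% also belong to Ggnbp1 on the opposite strand, and of those of Bax 12.2% to another gene model on the same strand, so reads there may have been shared or dropped in counting.

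Among the survival genes, Bcl2 stood higher in 2 of the 3 Med12cKO libraries, while Bcl2l1 and Mcl1 overlapped. Bcl2 (chromosome 1, 106538178 to 106714274, minus strand) measured 29.4, 28.8 and 19.7 CPM in Med12cKO replicates 1 to 3, against 19.6, 16.8 and 19.9 CPM in controls. Med12cKO replicates 1 and 2 were above every control, and replicate 3 lay among the controls. The mean was 26.0 ± 5.45 CPM in Med12cKO and 18.7 ± 1.72 CPM in controls, a log2 fold change of 0.47 (SE 0.18, 95% interval 0.059 to 0.88; unadjusted p = 0.0294 and adjusted p = 0.9999, edgeR). Without Med12cKO replicate 3 the log2 fold change was 0.63 (unadjusted p = 0.0021, edgeR), and without Med12cKO replicate 1 it was 0.36 (unadjusted p = 0.118). Without both libraries with thymus transcripts it was 0.41 (SE 0.26, unadjusted p = 0.1299). A gene model on the opposite strand covers 6.09% of the exon bases of Bcl2.

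Bcl2l1 (chromosome 2, 152780668 to 152831728, minus strand) encodes BCL-XL and measured 65.2, 50.03 and 54.0 CPM in Med12cKO and 49.4, 47.8 and 65.9 CPM in controls. The highest library of each group was the one with thymus transcripts, and the log2 fold change was 0.052 (SE 0.16, 95% interval −0.31 to 0.42), or 0.093 (SE 0.20) without those libraries. Mcl1 (chromosome 3, 95658788 to 95663176, plus strand) encodes a survival protein with a short half-life on which cardiomyocytes depend. It was the most abundant member, at 277, 278 and 290 CPM in Med12cKO and 320, 287 and 310 CPM in controls. A single Med12cKO library, replicate 3, reached into the control range, and the log2 fold change was −0.12 (SE 0.11, 95% interval −0.37 to 0.13).

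The mitophagy receptors did not separate the groups either. Bnip3 (chromosome 7, 138890836 to 138909519, minus strand) measured 51.2, 54.4 and 72.9 CPM in Med12cKO and 72.0, 66.4 and 60.1 CPM in controls. Med12cKO replicates 1 and 2 were below every control and replicate 3 was above them all, giving a log2 fold change of −0.15 (SE 0.15, 95% interval −0.50 to 0.19). Without replicate 3 it was −0.33 (unadjusted p = 0.0280 and adjusted p = 0.625, edgeR). Bnip3l (chromosome 14, 66985239 to 67008877, minus strand), which also clears mitochondria from maturing red cells, measured 107, 98.2 and 107 CPM in Med12cKO and 104, 92.0 and 99.0 CPM in controls. This was a narrow range, with a log2 fold change of 0.080 (SE 0.11, 95% interval −0.16 to 0.32). The red cell gene Alas2 measured 52.5, 36.1 and 76.8 CPM in Med12cKO and 57.1, 89.5 and 43.7 CPM in controls, and the 6 globin symbols of the erythroid list were at 0 in every library. Of that list 5 genes were tested, 4 with a negative and 1 with a positive log2 fold change. Among them Slc4a1 alone had an unadjusted p under 0.05 in edgeR, beside 3.78% of all genes. It measured 3.38, 3.75 and 5.27 CPM in Med12cKO and 8.29, 6.48 and 5.36 CPM in controls (log2 fold change −0.69, SE 0.27). Whether red cell content differed was not tested. An opposite-strand gene model covers 22.3% of the exon bases of Bnip3.

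**Figure D2:**
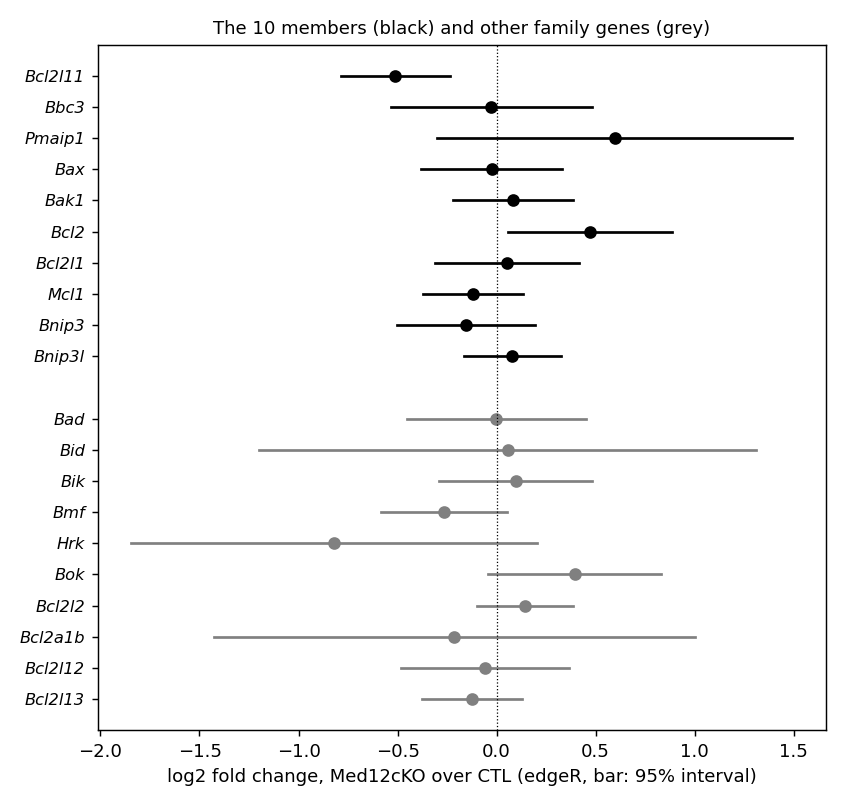
Log2 fold change of Med12cKO over CTL (x axis) with its 95% interval from edgeR for the 10 members (black) and for the 10 other BCL2 family genes tested (grey). The intervals of Bcl2l11 (−0.79 to −0.24) and Bcl2 (0.059 to 0.88) leave out 0 before adjustment, and those of the others include it.

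Levels can be set beside each other between genes only per length. Per kilobase of annotated exon, Mcl1 was highest at 82.4 ± 2.19 CPM per kilobase in Med12cKO and 89.5 ± 4.95 in controls, with no overlap with the next gene. Next in the control order came Bnip3 (26.3 ± 5.16 in Med12cKO, 29.2 ± 2.65 in controls), Bnip3l (27.0 ± 1.32 and 25.5 ± 1.60 in the same groups), Bax (20.4 ± 2.94 and 20.7 ± 3.18) and Bak1 (20.6 ± 1.69 and 19.5 ± 2.52). Among these 4 genes, each overlapped its neighbour in the controls. In Med12cKO the ranges of Bnip3l and Bax did not overlap. Below Bak1 stood Bcl2l11, at 9.41 ± 0.95 CPM per kilobase in Med12cKO and 13.4 ± 1.05 in controls, and Bcl2l1, at 12.3 ± 1.71 in Med12cKO and 11.9 ± 2.18 in controls. In Med12cKO every Bcl2l1 value was above every Bcl2l11 value, while in controls the 2 genes overlapped. Bbc3 (4.13 ± 0.97 in Med12cKO, 4.20 ± 0.53 in controls), Bcl2 (2.84 ± 0.60 and 2.05 ± 0.19 in the same groups) and Pmaip1 (0.89 ± 0.30 and 0.58 ± 0.24) were lowest, each apart from the next within both groups. Exon length counts all annotated exons, so a gene with long exons that are little used is understated.

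The ratio of counts of 2 genes within a library does not depend on how libraries are scaled. Bcl2 counts over Bcl2l11 counts were 0.436, 0.349 and 0.257 in Med12cKO replicates 1 to 3, against 0.173, 0.1497 and 0.203 in controls. All 3 Med12cKO ratios were above all 3 control ratios, and the Med12cKO mean of 0.348 ± 0.0895 was 1.98 times the control mean of 0.175 ± 0.0267. Mcl1 counts over Bcl2l11 counts also did not overlap, at 4.11, 3.37 and 3.79 in Med12cKO and 2.83, 2.56 and 3.16 in controls. Bcl2l1 counts over Bcl2l11 counts overlapped, at 0.967, 0.606 and 0.706 in Med12cKO and 0.436, 0.427 and 0.672 in controls. Of the ratios without Bcl2l11, Bcl2 counts over Bax counts overlapped, at 0.967, 1.01 and 0.527 in Med12cKO and 0.509, 0.5696 and 0.660 in controls. The ratios of Bcl2l1 to Bax, Bax to Bak1 and Bnip3 to Bnip3l overlapped as well. Their Med12cKO means were 1.05, 0.93 and 0.85 times the control means. Mcl1 counts over Bcl2 counts did not overlap, at 9.41, 9.65 and 14.7 in Med12cKO and 16.4, 17.1 and 15.6 in controls. These ratios are given as a description, since Bcl2l11 and Bcl2 were already known to have the lowest unadjusted p among the members.

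**Figure D3:**
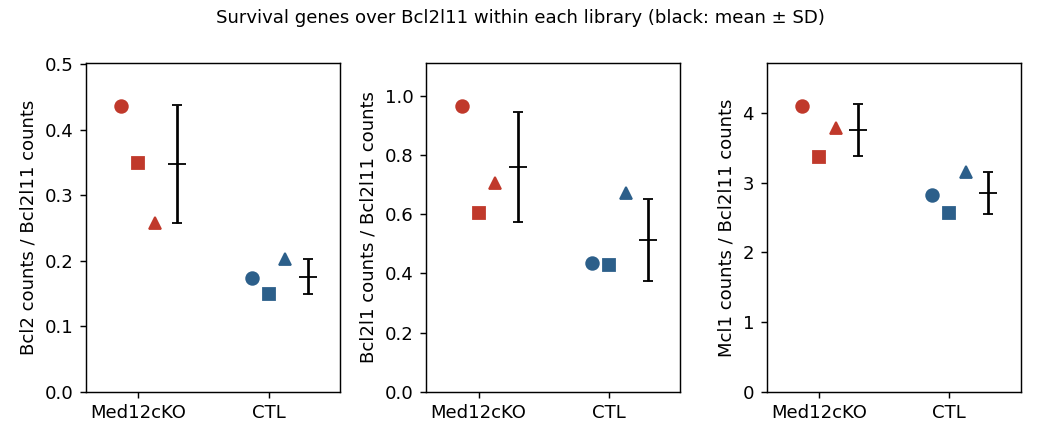
Counts of Bcl2, Bcl2l1 and Mcl1 divided by counts of Bcl2l11 in the same library (y axes, from 0), for Med12cKO (red) and CTL (blue), with mean ± SD (n = 3) in black. The Bcl2 and Mcl1 ratios of the 3 Med12cKO libraries lie above those of the 3 controls, and the Bcl2l1 ratios overlap.

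The rest of the BCL2 family, taken from lists of further family genes, held no gene that passed the test or reached an unadjusted p under 0.05. Of the 15 listed, 10 were tested. Of the 5 other BH3-only genes, Bmf, which responds to loss of cell attachment, measured 74.4, 63.0 and 71.8 CPM in Med12cKO and 68.9, 87.9 and 94.1 CPM in controls (log2 fold change −0.26, SE 0.14). Hrk was near the detection limit, at 0.338, 1.18 and 1.18 CPM in Med12cKO and 1.61, 1.71 and 1.53 CPM in controls, with groups that did not overlap (unadjusted p = 0.104, edgeR). Bid, cleaved by caspase 8 to link death receptors to mitochondria, followed the thymus transcripts, at 11.2, 4.14 and 4.74 CPM in Med12cKO and 4.26, 3.72 and 11.2 CPM in controls. Bad and Bik had log2 fold changes of −0.0012 (SE 0.20) and 0.096 (SE 0.17). The effector relative Bok measured 19.6, 18.7 and 18.4 CPM in Med12cKO and 17.4, 10.86 and 15.02 CPM in controls. Its groups did not overlap, and the log2 fold change of 0.39 (SE 0.19, unadjusted p = 0.0714, edgeR) did not pass. The survival gene Bcl2l2 (BCL-W) was likewise apart but close, at 82.7, 93.8 and 85.4 CPM in Med12cKO and 81.8, 79.0 and 76.4 CPM in controls (log2 fold change 0.14, SE 0.11). Hrk, Bok and Bcl2l2 were the genes with groups apart among these 10, beside 8.23% of all genes. The log2 fold change was −0.12 (SE 0.11) for Bcl2l13, a further mitophagy receptor, and −0.058 (SE 0.19) for Bcl2l12. Bcl2a1b was the single tested gene of the 3 Bcl2a1 copies, which are near-identical and uncertain in counting, and Bcl2l10, Bcl2l14 and Bcl2l15 were below the filter.

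Among genes upstream and downstream, 119 of 131 listed pathway genes were tested, other family genes included. None passed edgeR over all genes. At an unadjusted p under 0.05 there were 2 with a higher and 6 with a lower mean in Med12cKO, 6.72% of those tested beside 3.78% of all genes (2.16% higher and 1.61% lower). The lists too were chosen with earlier results of these data known, so this share is a description. DESeq2 called 1, the growth-factor-induced transcription factor gene Egr1, which fell in Med12cKO. Egr1 measured 46.3, 34.2 and 37.0 CPM in Med12cKO and 87.1, 62.3 and 90.1 CPM in controls, a log2 fold change of −1.03 in edgeR (SE 0.18; adjusted p = 0.129, and 1.6e-04 in DESeq2).

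The list of FOXO and stress regulators of BH3-only genes had 12 tested members and a median log2 fold change of −0.059, beside 0.0081 for all genes. The groups did not overlap in 3 of the 12, beside 8.23% of all genes. An unadjusted p under 0.05 was reached by 2 of the 12, beside 3.78% of all genes. The second after Egr1 was Jun, a partner in the AP-1 factor that can induce Bcl2l11 in neurons, at 92.2, 95.4 and 106 CPM in Med12cKO and 115, 137 and 133 CPM in controls. Its groups did not overlap (log2 fold change −0.39, SE 0.12; adjusted p = 0.751, edgeR).

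Among p53 and its target genes, 20 were tested and the median log2 fold change was 0.063. Of the 20, 2 had an unadjusted p under 0.05, beside 3.78% of all genes. Cdkn1a, the p21 inhibitor of the cell cycle, measured 53.8, 52.0 and 42.9 CPM in Med12cKO and 42.9, 30.1 and 29.8 CPM in controls (log2 fold change 0.53, SE 0.17; adjusted p = 0.828, edgeR). Ccng1 measured 386, 413 and 376 CPM in Med12cKO and 328, 338 and 295 CPM in controls (log2 fold change 0.29, SE 0.12). The groups did not overlap in 4 of the 20, beside 8.23% of all genes, and in Cdkn1a the lowest Med12cKO and the highest control library were both at 42.9 CPM.

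The HIF list, which bears on Bnip3, had 21 tested genes, 3 at an unadjusted p under 0.05, and a median log2 fold change of −0.081. The 3 were the growth factor gene Vegfa, the prolyl hydroxylase gene Egln3 and the glucose transporter gene Slc2a1, all with Med12cKO libraries below all controls. In all, 4 of the 21 had groups apart, beside 8.23% of all genes, and 3.78% of all genes had an unadjusted p under 0.05. Vegfa measured 247, 287 and 251 CPM in Med12cKO and 366, 389 and 306 CPM in controls (log2 fold change −0.43, SE 0.13; adjusted p = 0.776, edgeR). For Egln3 the log2 fold change was −0.34 (SE 0.13), and for Slc2a1 −0.27 (SE 0.12). Bnip3 itself was at −0.15, and its Med12cKO replicate 3 was its highest library.

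Of the apoptosome genes, caspases and their inhibitors, which act after mitochondrial release, 24 were tested and 0 had an unadjusted p under 0.05, with 17 at a negative log2 fold change and a median of −0.049. Mitophagy and autophagy genes had 21 tested and 1 at an unadjusted p under 0.05, the autophagy kinase gene Ulk1, at 111, 105 and 114 CPM in Med12cKO and 125, 145 and 141 CPM in controls (log2 fold change −0.32, SE 0.11; adjusted p = 0.977, edgeR). Among factors that set the stability or location of BCL2 proteins, 11 were tested and 0 reached an unadjusted p under 0.05, with a median of 0.016. Over all genes tested, 3.78% had an unadjusted p under 0.05.

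Across the 6 libraries, the genes whose log2 CPM was most like that of Bcl2l11, of 10790 with an average log2 CPM of at least 3, were Efna5, Rsad1, Tmem88b, Pnpla8 and Lclat1, with Pearson r of 0.994, 0.989, 0.987, 0.984 and 0.982. Efna5 measured 38.9, 45.2 and 41.1 CPM in Med12cKO and 61.1, 61.4 and 54.3 CPM in controls. Each of the 5 was lower in every Med12cKO library than in every control, where the groups were apart in 8.23% of all genes. This follows largely from the choice, since the 5 were picked for likeness to Bcl2l11, whose own groups were apart. Closest to Bnip3 were Rsph3b, Slc9a3r2, Mrps27, Chchd10 and Suclg1, with r of 0.996, 0.996, 0.994, 0.993 and 0.993. Of these, Mrps27, Chchd10 and Suclg1 encode mitochondrial proteins, and the share of such genes among the 10790 compared was not counted. Suclg1 measured 256, 267 and 384 CPM in Med12cKO and 396, 345 and 298 CPM in controls, the same order of libraries within each group as Bnip3. An r above 0.9 was reached by 82 genes for Bcl2l11 and by 466 for Bnip3. With 6 libraries that share group, depth and tissue makeup, these values describe likeness in these libraries alone.

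**Figure D4:**
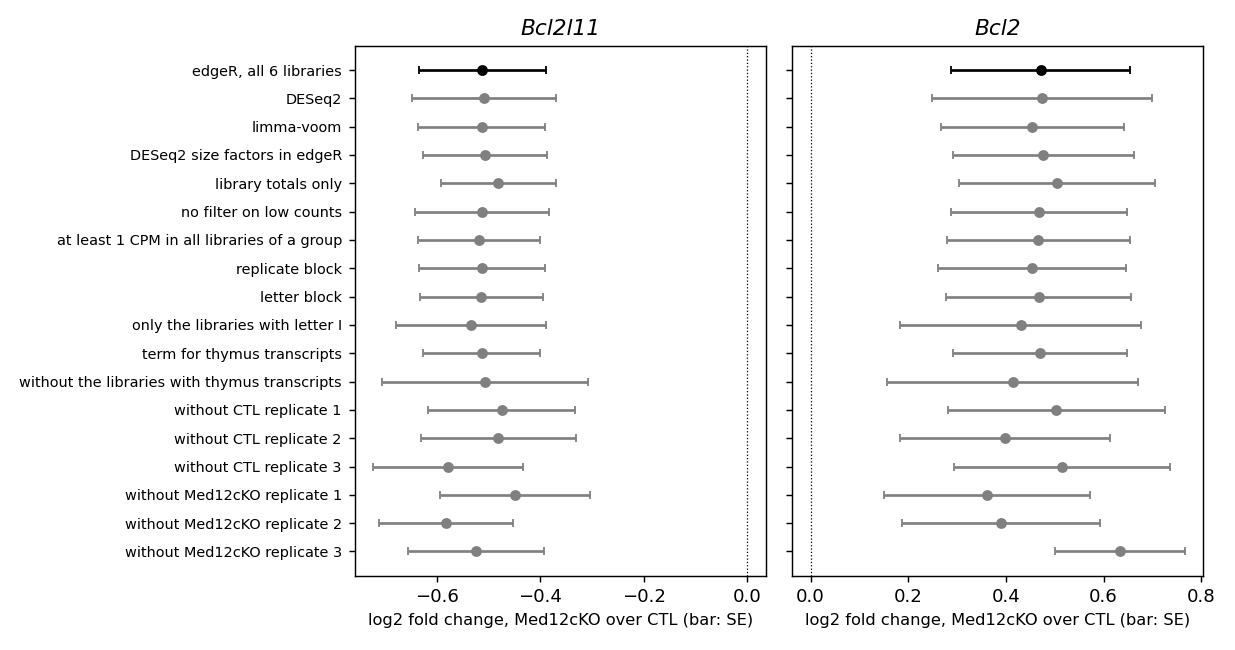
Log2 fold change of Med12cKO over CTL (x axis, bar: SE) of Bcl2l11 and Bcl2 with all 6 libraries (black) and under 17 alternative settings (grey). Bcl2l11 lies between −0.58 and −0.45 and Bcl2 between 0.36 and 0.63, with no change of sign.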

How the data were processed

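The deposited table holds raw read counts per gene symbol on GRCm38 (mm10). The authors used TopHat2 2.0.0, featureCounts and edgeR 3.14.0, per the submitters' processing notes. The annotation, the strand setting and any filter are not given in the sources used here. Columns were matched to samples by the description label, and groups came from titles. The labels do not tie each library to an animal, so p-values cover only the spread among these libraries, which may be technical. Replicates differed beyond sampling noise (chi-square of 14.5 to 29.3 per degree of freedom).

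Counts were filtered with filterByExpr (minimum count 10, minimum total 15), scaled by TMM and tested with edgeR 4.0.16's robust quasi-likelihood F test in R 4.3.3, adjusted by Benjamini-Hochberg over all genes at a threshold of 0.05. Standard errors were the log2 fold change over the root of F, and intervals are at 95%. Scaled CPM used library sizes over tested genes, and log2 CPM a prior count of 0.5. DESeq2 1.42.0 ran on all genes with a count, with undefined adjusted p left so, and limma-voom (3.58.1) on the edgeR genes. A library counted as having thymus transcripts at a mean of at least 10 CPM over 16 markers. Positions and exon lengths came from GENCODE M21 (GRCm38), promoters from RefSeq.

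The fit was tested on simulated counts. The members and lists were chosen with earlier results of these data known. Named were all members, other family genes, Med12, from each pathway list genes called by edgeR or DESeq2 and up to 3 more with the smallest unadjusted p under 0.05, and the 5 genes most like Bcl2l11 and Bnip3. The values of Alas2, Slc4a1 and Suclg1 were picked after being seen.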

Additional observations from a re-analysis of the deposited data

How the results depend on the processing

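None of the 10 members passed the threshold under any of the 17 alternatives, and the lowest adjusted p was 0.0523, for Bcl2l11 in DESeq2. Of 170 member values under these alternatives 157 kept their sign. Bcl2l11 kept an unadjusted p under 0.05 in all 17, and Bcl2 in 11. Sign changes were confined to Bax, Bbc3 and Bcl2l1, which lie near 0. Bax had a log2 fold change of 0.0048 with library totals only and 0.20 in the libraries with letter I, and Bbc3 had 0.099 in those libraries and 0.12 without the libraries with thymus transcripts. With each library left out in turn, Bax ran from −0.15 to 0.11, Bbc3 from −0.23 to 0.10 and Bcl2l1 from −0.078 to 0.21. The cause was not tested.

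Over all genes, DESeq2 called 29 higher and 32 lower, against 1 and 2 in edgeR. The count of higher genes was 0 with DESeq2's size factors in edgeR (519 genes at an unadjusted p under 0.05 in all), 0 in the libraries with letter I (574, with 1 lower called) and 0 with the replicate block (537). It was 2 with library totals only, with the thymus term and without the libraries with thymus transcripts. Leaving out a library gave 0 to 1 higher and 1 to 2 lower. Med12 passed in DESeq2 (log2 fold change −1.06). Whether the replicate number marks a pairing is not known. Same-numbered libraries had deviations from their group mean that correlated at −0.30, 0.41 and −0.34. Med12cKO replicate 1 correlated best with control replicate 3 (0.69), the other library with thymus transcripts. Such correlations cannot decide on a pairing, since the thymus transcripts enter them and each group has only 3 libraries. With the replicate block Med12 was at −1.08 (SE 0.15), beside an SE of 0.30 without it. With the replicate block Bcl2l11 was at −0.51 and no member passed. Pmaip1, at 9 to 30 counts, is the member with the fewest counts.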
